A study of Homo sapiens with 12 samples.

Results

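The 8 genes followed here belong to the muscle transcription machinery and were measured in RD cells, an established human line of fusion-negative rhabdomyosarcoma: the MyoD family (MYOD1, MYF5, MYF6 and MYOG), the MEF2 factors MEF2A, MEF2C and MEF2D, and their partner TCF12. They were taken by name from the deposited table, which held a row for each of the 8 among its 26485 gene rows. Of these, 7 passed the filter on low counts that left 15206 genes for testing, and MYF5 did not. The cells carried a doxycycline-inducible short hairpin against NT5E, the gene of the adenosine-forming enzyme CD73, in either of 2 constructs. The groups were ish2 with 10 ng/mL doxycycline (Dox), ish2 without Dox, ish with Dox and ish without Dox, each grown for 96 h and each with 3 libraries of mRNA. All 12 libraries came from hairpin-bearing cells. No library paired Dox with a hairpin of no target, so what Dox does, what hairpin expression does and what losing NT5E does cannot be told apart. Whether each construct line is a clone or a pool, and whether replicates are separate cultures, is not given in the labels, so the p-values measure the spread between libraries, which may be technical.

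The MyoD family are helix-loop-helix factors that turn on muscle genes. MYOD1 and MYF5 commit a cell to muscle, and MYOG and MYF6 act later, when the cell differentiates. They bind DNA sites called E boxes as pairs with an E protein such as TCF12, and MEF2 factors bind A/T-rich sites in many of the same genes. MYOD1 and MYOG serve as diagnostic markers of rhabdomyosarcoma, whose cells express them without completing differentiation.

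The libraries held 26566603 to 32692207 gene counts each. NT5E had 14.5, 15.2 and 14.1 CPM in the ish2 Dox libraries, against 24.1, 23.5 and 22.1 CPM without Dox, and 1.94, 1.23 and 1.54 CPM in the ish Dox libraries, against 14.9, 18 and 17.3 CPM without Dox (CPM, a gene's counts relative to the size of its library, after TMM scaling). It fell in both constructs, 1.59-fold in ish2 (log2 fold change -0.67, SE 0.065, adjusted p = 4.62e-11) and 10.7-fold in ish (-3.41, SE 0.11, adjusted p = 3.31e-25). The 7 muscle and rhabdomyosarcoma markers DES, CDH15, CHRNA1, CHRNG, FGFR4, PAX7 and MYCN had reads in every group and together summed to between 2052 and 2293 CPM per library. CHRNA1 alone had group means of 824 to 1153 CPM, so the sum says little of the others. Of the 7, 1 was called higher and 5 lower with Dox in ish2, where 33.9% and 31.1% of all tested genes were. In ish 3 were called higher and 2 lower, where 39.1% and 39.5% were. DES, CDH15, CHRNA1 and CHRNG are also in the list of targets below, and PAX7 is in that of upstream factors. The calls of these lists are thus partly the same. Of 10 markers of endothelial, epithelial, blood and liver cells, 9 did not pass the filter and had at most 14 counts in any library. The tenth, CD68, a lysosomal gene of macrophages, brought the sum of all 10 to 3.84 to 4.18 CPM in ish2 with Dox, 3.15 to 4.26 CPM in ish2 without it, 2.16 to 2.77 CPM in ish with Dox and 3.23 to 3.51 CPM in ish without it. CD68 fell by 0.57 in ish (log2 fold change, adjusted p = 0.000718) and had 0.27 in ish2, which was not called (adjusted p = 0.0697); its part in the results below was not tested. In bulk RNA, fewer cells that express a gene and less RNA per cell cannot be told apart.

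**Figure D1:**
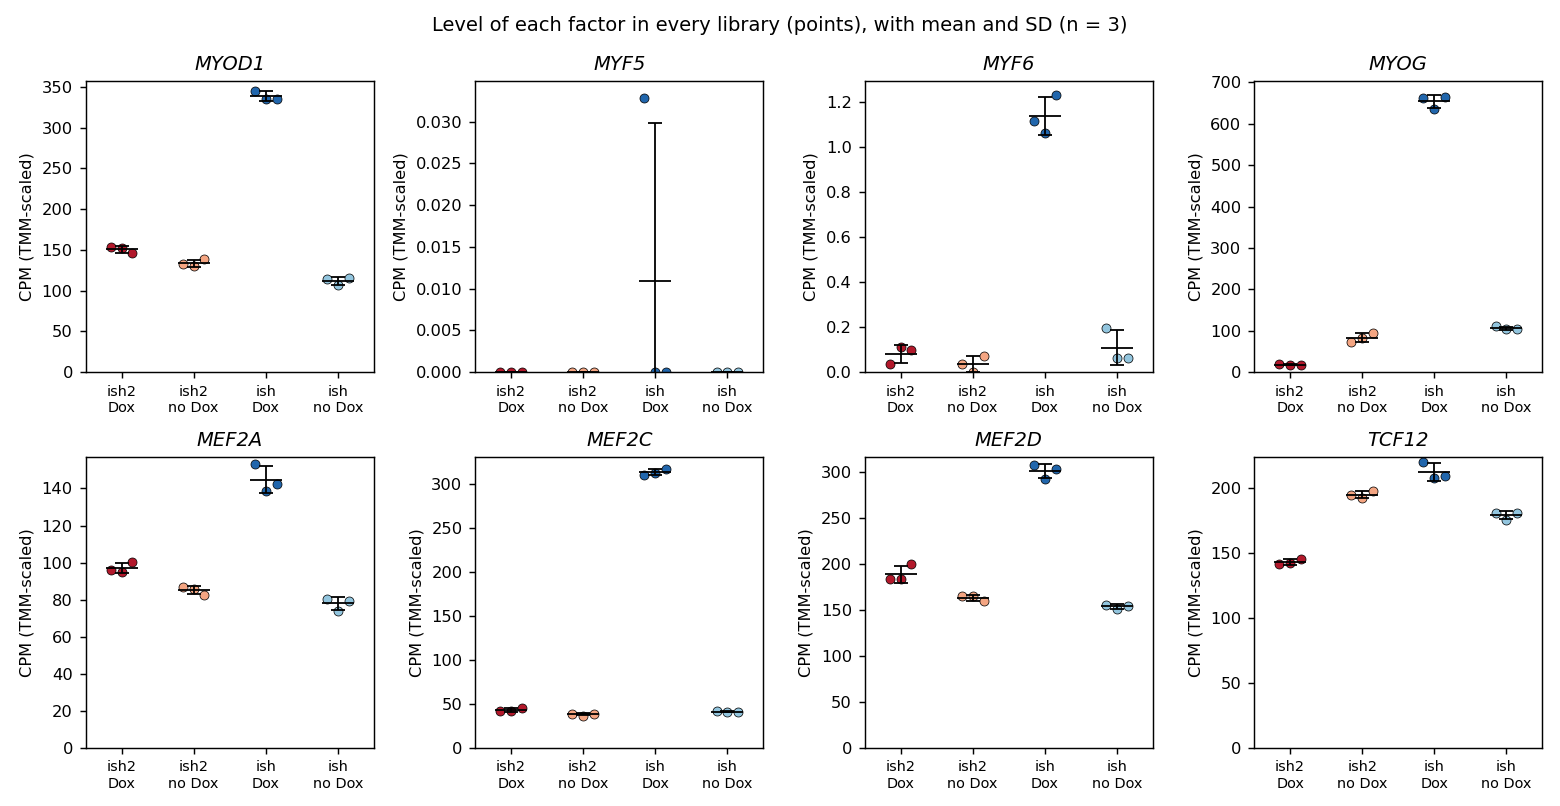
Level in CPM of each of the 8 genes (one panel each, linear axis from 0) in the ish2 Dox, ish2 no Dox, ish Dox and ish no Dox libraries; points are libraries, bars the mean and SD of 3. MYOG lies between 636 and 665 CPM in ish with Dox and between 16.5 and 18.5 CPM in ish2 with Dox, whereas the other members differ less between the Dox groups or are near 0.

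Of the 8 genes, MYOG moved furthest apart between the constructs: it fell with Dox in ish2 and rose with Dox in ish. The libraries of ish2 with Dox had 18.5, 17.7 and 16.5 CPM of MYOG, against 73.4, 81.5 and 93.9 CPM without Dox. The libraries of ish with Dox had 663, 636 and 665 CPM, against 110.4, 103.0 and 105.1 CPM without Dox. The Dox groups overlapped neither each other nor the groups without Dox. The fall in ish2 was 4.73-fold (log2 fold change -2.24, SE 0.098, adjusted p = 1.55e-08) and the rise in ish was 6.16-fold (2.62, SE 0.069, adjusted p = 1.11e-10). The ish2 effect minus the ish effect was -4.87 in log2 units (SE 0.12, adjusted p = 7.48e-11). By size, the fall in ish2 ranked 30 among the 15206 tested genes and the rise in ish ranked 224. Among all tested genes, 15 (0.0986%) were called over 4-fold higher in ish and over 4-fold lower in ish2, and MYOG was one of them.

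The MYOG gene occupies chromosome 1, bases 203083132 to 203086036 (GRCh38, minus strand), with 3 exons and 1528 exon bases in GENCODE. Its promoter is shown because this gene carries the largest difference between the constructs among the 8. The sequence is from RefSeq (GRCh38.p14, chr1:203085963-203086262, minus strand), from 250 bases before to 50 after the RefSeq start, which need not be that of GENCODE, and runs 5′ to 3′. Capitals mark an E box (CANNTG), the MEF3 motif (TCAGGTTTC), a site named for its role in muscle promoters, and TANNNNTA. The last is a shorter and looser form of the MEF2 site, in which N may be any base and not only A or T.
MYOG promoter: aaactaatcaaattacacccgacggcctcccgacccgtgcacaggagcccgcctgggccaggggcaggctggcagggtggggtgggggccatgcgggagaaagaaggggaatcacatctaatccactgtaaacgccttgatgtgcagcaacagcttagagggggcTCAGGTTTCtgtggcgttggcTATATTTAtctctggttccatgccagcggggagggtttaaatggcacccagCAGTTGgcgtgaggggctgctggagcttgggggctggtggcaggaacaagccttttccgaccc
The E box begins 13 bases, the MEF2-type match 64 bases and the MEF3 match 85 bases before the start. Both strands were searched. An E box occurs in 68.7% of the 35116 promoters of this length in the same table, TANNNNTA in 29.9% and the MEF3 motif in 0.362%. The longer MEF2 consensus, found in 2.99% of promoters, has no match here, and TANNNNTA was added after the sequence had been read. These matches describe the letters of the window and do not show that a factor binds.

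MYOD1, the muscle-determining factor, rose in both constructs, by little in ish2 and about 3-fold in ish. It had 153.9, 151.9 and 145.6 CPM in ish2 with Dox, against 132.2, 130 and 138.6 CPM without Dox. In ish it had 345, 335 and 335 CPM with Dox, against 114.5, 106.6 and 115.0 CPM without Dox. In each construct every Dox library lay above every library without Dox. The rise was 1.13-fold in ish2 (log2 fold change 0.17, SE 0.032, adjusted p = 1.25e-05) and 3.02-fold in ish (1.6, SE 0.030, adjusted p = 1.7e-32), and the effects differed by -1.42 (SE 0.044, adjusted p = 6.5e-26). MYOD1 lies on chromosome 11 (17719568 to 17722131, plus strand).

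MYF6 and MYF5 are neighbours on chromosome 12 (80707498 to 80709474 and 80716912 to 80719673, both on the plus strand), and both were close to silent. MYF6, a late differentiation factor also known as MRF4, had 1, 3 and 3 reads in ish2 with Dox, against 1, 0 and 2 reads without Dox. In ish it had 34, 32 and 40 reads with Dox, against 6, 2 and 2 reads without Dox. Summed over libraries and scaled to depth, the ratio of Dox to no Dox was 2.19 in ish2, with a 95% counting interval of 0.499 to 13.1, and 10.7 in ish, with an interval of 5.59 to 23.0; the intervals cover counting error only. MYF6 passed the filter only through the ish Dox libraries, so a difference there (adjusted p = 1.82e-10) was built into its being tested. The fitted log2 fold change in ish was 3.37, and 4.08 without ish no-Dox replicate 1, which held 6 of the 10 reads without Dox. The difference between the constructs was not called (log2 -2.32, interval -4.80 to 0.16, adjusted p = 0.0872), at a depth of at most 3 reads a library in ish2. Without ish no-Dox replicate 1 it was -3.05 (adjusted p = 0.0344) and without ish2 no-Dox replicate 2 it was -2.84 (adjusted p = 0.036), and the range of its adjusted p over all alternatives was 0.0344 to 0.525.

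MYF5, which commits cells to muscle as MYOD1 does, had 1 read in ish Dox replicate 1 and 0 reads in the other 11 libraries. A count of 0 allows up to 3 reads, or 0.0923 to 0.113 CPM depending on the library, so MYF5 was not detectable at this depth in those 11. The promoters of both genes are shown because they are the family members with little or no RNA here (RefSeq, GRCh38.p14, plus strand, chr12:80707384-80707683 for MYF6 and chr12:80716662-80716961 for MYF5). Capitals again mark E boxes, TANNNNTA and TCAGGTTTC on either strand.
MYF6 promoter: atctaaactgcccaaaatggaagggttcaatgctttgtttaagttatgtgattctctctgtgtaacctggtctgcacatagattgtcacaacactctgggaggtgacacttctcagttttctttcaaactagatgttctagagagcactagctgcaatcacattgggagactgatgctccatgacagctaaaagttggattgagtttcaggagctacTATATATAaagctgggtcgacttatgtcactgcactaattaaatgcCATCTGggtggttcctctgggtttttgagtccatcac
MYF5 promoter: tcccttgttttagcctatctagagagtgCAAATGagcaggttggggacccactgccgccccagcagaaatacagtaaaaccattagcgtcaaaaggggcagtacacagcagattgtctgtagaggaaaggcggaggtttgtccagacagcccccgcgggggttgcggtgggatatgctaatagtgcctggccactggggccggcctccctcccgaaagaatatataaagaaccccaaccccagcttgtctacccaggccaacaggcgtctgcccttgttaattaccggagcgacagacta
In MYF6 the E box begins at base 14 after the start. Its match to TANNNNTA overlaps both the longer MEF2 consensus and the motif TATAAA, which 11.5% of promoters hold. MYF5 has 1 E box, beginning 222 bases before the start, and no match to TANNNNTA or TCAGGTTTC. The motif TATAAA occurs in MYF5 too, beginning 28 bases before the start. The sequence table held no entry for MYOD1. It listed 7 alternative starts for MEF2C, 5 for TCF12 and 3 for MEF2A, and gene-level counts do not tell which of them were used.

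All 3 tested MEF2 factors rose in both constructs, by 1.13 to 1.16-fold in ish2, and in ish by 7.62-fold for MEF2C, against 1.96-fold for MEF2D and 1.86-fold for MEF2A. MEF2C, which in mouse cells rises as myoblasts differentiate, had 41.4, 42.0 and 45.7 CPM in ish2 with Dox, against 38.9, 36.5 and 38.9 CPM without Dox. In ish it had 311, 312 and 317 CPM with Dox, against 42.2, 40.4 and 41.0 CPM without Dox. The Dox libraries lay above the others in both constructs, by a margin of a few CPM in ish2. The rise was 1.13-fold in ish2 (log2 fold change 0.18, SE 0.040, adjusted p = 0.000263) and 7.62-fold in ish (2.93, SE 0.033, adjusted p = 1.97e-39), a difference of -2.75 (SE 0.053, adjusted p = 3.96e-32).

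MEF2D, which in mouse cells is already made in dividing myoblasts, had 183.8, 183.2 and 199.5 CPM in ish2 with Dox, against 164.8, 164.8 and 159.6 CPM without Dox. In ish it had 308, 293 and 303 CPM with Dox, against 155.8, 151.2 and 154.7 CPM without Dox. It rose 1.16-fold in ish2 (log2 fold change 0.21, SE 0.031, adjusted p = 1.67e-07) and 1.96-fold in ish (0.97, SE 0.030, adjusted p = 3e-26). MEF2A, a widely expressed member, had 96.0, 95.1 and 100.3 CPM in ish2 with Dox, against 87.0, 85.6 and 82.6 CPM without Dox. In ish it had 153.2, 138.8 and 142.4 CPM with Dox, against 80.5, 74.1 and 79.4 CPM without Dox. Its rise was 1.14-fold in ish2 (0.19, SE 0.037, adjusted p = 3.22e-05) and 1.86-fold in ish (0.89, SE 0.035, adjusted p = 4.27e-21). In both genes and both constructs the groups did not overlap. The effects differed by -0.76 for MEF2D (adjusted p = 4.99e-18) and by -0.70 for MEF2A (adjusted p = 7.47e-14). MEF2B, the fourth family member, had at most 3 reads in any library.

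The MEF2 genes lie on chromosome 15 (MEF2A, 99565417 to 99716466, plus strand), chromosome 5 (MEF2C, 88717117 to 88904257, minus strand) and chromosome 1 (MEF2D, 156463727 to 156500828, minus strand). MEF2A overlaps LYSMD4 on the other strand, which had at most 855 counts in a library, and MEF2C overlaps MEF2C-AS1, which had at most 9. The libraries were stranded, but the labels and notes do not state whether the counting used the strand, so reads in the overlaps could have been shared.

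TCF12, the E protein also called HEB, fell in ish2 and rose in ish, as MYOG did, over a narrower range. It had 141.5, 142.1 and 145.5 CPM in ish2 with Dox, against 194.6, 192.4 and 198.0 CPM without Dox. In ish it had 220.2, 207.4 and 209.4 CPM with Dox, against 181.0, 175.8 and 180.7 CPM without Dox. The groups did not overlap in either construct. It fell 1.36-fold in ish2 (log2 fold change -0.45, SE 0.028, adjusted p = 2.84e-16) and rose 1.19-fold in ish (0.25, SE 0.027, adjusted p = 3.31e-10), a difference of -0.69 (SE 0.039, adjusted p = 5.62e-18). TCF12 lies on chromosome 15 (56918623 to 57299281, plus strand). Of the other E proteins, TCF3, the source of E12 and E47, had 216, 212 and 205 CPM in ish2 with Dox, against 328, 336 and 347 CPM without Dox, and fell (log2 fold change -0.68, SE 0.027, adjusted p = 3.64e-22). In ish TCF3 had 361, 363 and 355 CPM with Dox, against 337, 332 and 332 CPM without Dox, and rose (0.11, SE 0.026, adjusted p = 0.000245). TCF4, the E protein also called E2-2, rose by 0.11 in ish2 (adjusted p = 0.000765) and by 0.63 in ish (adjusted p = 1.5e-21).

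**Figure D2:**
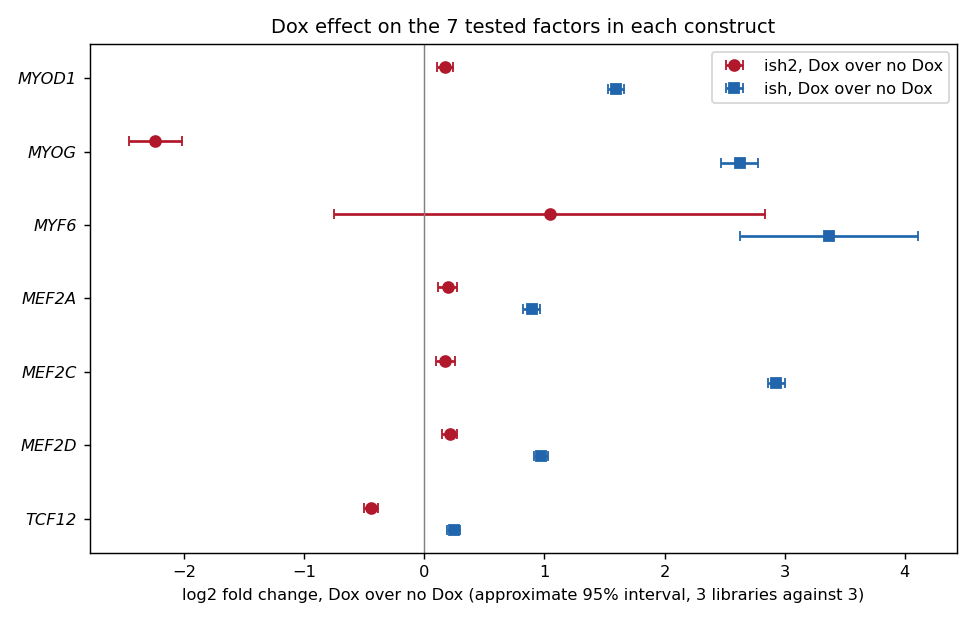
Log2 fold change of Dox over no Dox for the 7 tested genes (rows) in ish2 (circles) and in ish (squares), with approximate 95% intervals, 3 libraries against 3. MYOG sits at -2.24 in ish2 and 2.62 in ish, TCF12 lies on either side of 0, and the interval of MYF6 in ish2 reaches from -0.75 to 2.84.

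As a family, the 6 factors with reads in every library did not respond alike in ish2. MYOD1, MEF2A, MEF2C and MEF2D rose there, against a background of 33.9% of all tested genes called higher, and MYOG and TCF12 fell, against 31.1% called lower (65.0% called in all). Their groups did not overlap, as was so for 66.6% of tested genes. The rises were small: by fold they ranked from 4320 for MEF2D to 4904 for MYOD1 among the 15206 genes, of which 5150 were called higher. In ish these 6 genes all rose, where 39.1% of tested genes were called higher and 39.5% lower (78.6% in all) and the groups of 80.6% did not overlap. The difference, ish2 minus ish, was called negative for the 6 genes other than MYF6, where 35.2% of tested genes were, 37.4% being called positive (72.6% in all). MEF2C ranked 164, MYOD1 540, MEF2D 1171, MEF2A 1306 and TCF12 4951 by rise in ish. In the exact two-sided permutation test of log2 CPM, each of the 6 gave p = 0.1 in each construct, the smallest that 3 libraries against 3 can give, and MYF6 gave 0.3 in ish2.

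The make-up of the MyoD family differed between the groups. Scaled to exon length, MYOG made up 12.1% ± 0.33 of the summed MyoD family RNA in ish2 with Dox (SD, n = 3), against 42.1% ± 2.43 without Dox. In ish it made up 69.4% ± 0.47 with Dox, against 52.7% ± 0.78 without Dox. Per kilobase there were 0.137 ± 0.0042 MYOG reads to each MYOD1 read in ish2 with Dox, against 0.73 ± 0.072 without Dox, and 2.28 ± 0.051 in ish with Dox, against 1.12 ± 0.035 without Dox. The summed family level was 95.1 ± 3.05 CPM per kb in ish2 with Dox, against 128.5 ± 8.87 CPM per kb without Dox, and 617 ± 12.5 CPM per kb in ish with Dox, against 131.8 ± 4.73 CPM per kb without Dox. MEF2C was 7.75% ± 0.11 of the summed level of MEF2A, MEF2C and MEF2D in ish2 with Dox, against 7.91% ± 0.35 without Dox, a difference within the spread between libraries. In ish it was 28.2% ± 0.74 with Dox, against 9.02% ± 0.10 without Dox. With the longest transcript as the length the MEF2C share in ish was 35.5% ± 0.86 with Dox, against 12.2% ± 0.14 without Dox.

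**Figure D3:**
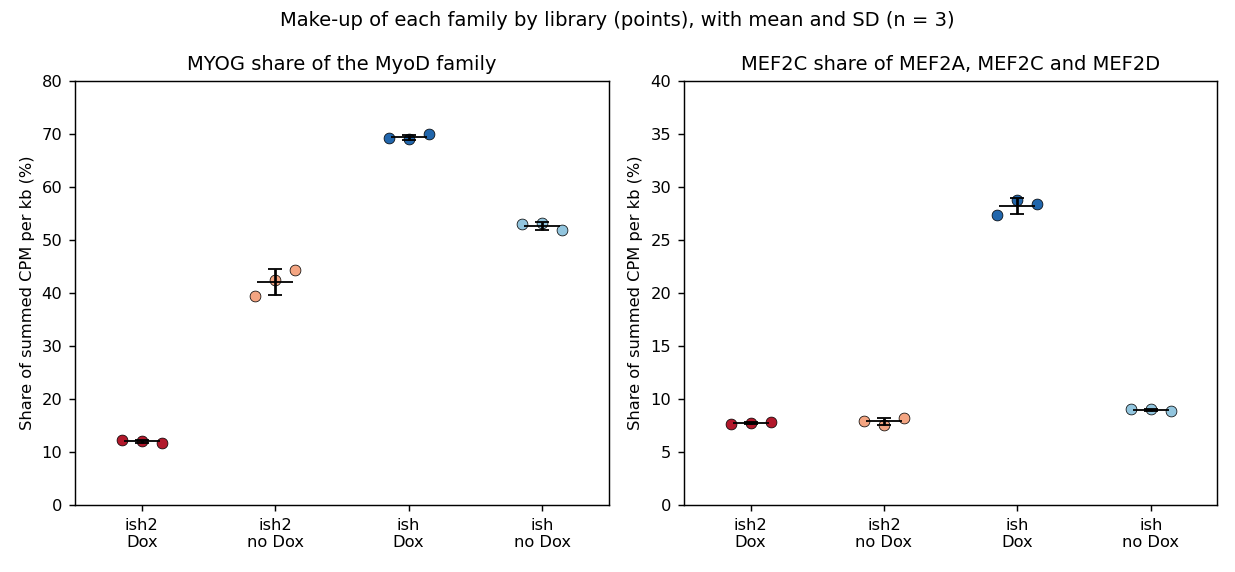
Share in percent of the summed CPM per kb taken by MYOG within the MyoD family (left) and by MEF2C within MEF2A, MEF2C and MEF2D (right), per library, with mean and SD of 3. MYOG takes 11.8 to 12.4% in ish2 with Dox and 69.0 to 69.9% in ish with Dox; MEF2C stands apart in ish with Dox, at 27.4 to 28.8%.

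Without Dox the levels of the 6 factors with reads in every library differed between the lines by at most 1.28-fold. The targeted gene NT5E was 1.39-fold higher in uninduced ish2 than in uninduced ish (log2 fold change 0.47, SE 0.063, adjusted p = 6.14e-07). Per kilobase of exon, the order in uninduced ish2 was MYOD1 (74.2 ± 2.48 CPM per kb, SD, n = 3), MYOG (54.3 ± 6.75), MEF2D (25.5 ± 0.47), TCF12 (20.6 ± 0.30), MEF2A (12.3 ± 0.33), MEF2C (3.24 ± 0.12), MYF6 (0.025 ± 0.025) and MYF5 at 0. In uninduced ish MYOG stood first (69.5 ± 2.50 CPM per kb) and MYOD1 next (62.2 ± 2.62), and the others followed in the same order, with MEF2D at 24.0 ± 0.38, TCF12 at 19.0 ± 0.31, MEF2A at 11.3 ± 0.50 and MEF2C at 3.5 ± 0.078. Neighbours in these orders did not overlap between libraries, except MYF6 and MYF5 in ish2. With the longest transcript as the length, MEF2D and TCF12 changed places in both lines. Under Dox, MYOG stood below MEF2A in ish2 (11.5 ± 0.67 CPM per kb) and first in ish (428 ± 10.6), and MEF2C stood above TCF12 and MEF2A in ish.

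Set against ish, uninduced ish2 had more MYOD1, 1.19-fold (log2 fold change 0.25, SE 0.032, adjusted p = 1.9e-07), TCF12, 1.09-fold (0.12, SE 0.028, adjusted p = 0.000941), MEF2A, 1.09-fold (0.13, SE 0.038, adjusted p = 0.0128), and MEF2D, 1.06-fold (0.084, SE 0.031, adjusted p = 0.0411). It had less MYOG, 1.28-fold lower (-0.36, SE 0.076, adjusted p = 0.00754), and less MEF2C, 1.08-fold lower (-0.11, SE 0.040, adjusted p = 0.0398). Of all tested genes, 13.7% were called higher and 12.4% lower (26.1% in all), and the groups of 38.2% did not overlap, as was so for these 6. MYF6 had 3 reads in uninduced ish2 and 10 in uninduced ish. It was not called (log2 fold change -1.44, interval -3.11 to 0.228, adjusted p = 0.206). Leaving out a library ended the calls of MEF2A (adjusted p = 0.12 without ish no-Dox replicate 2 and adjusted p = 0.0679 without ish2 no-Dox replicate 1), of MEF2D (adjusted p up to 0.167, lost without any of the uninduced libraries but ish2 replicate 3) and of MEF2C (adjusted p = 0.136 and adjusted p = 0.0766 without ish no-Dox replicates 1 and 3, and adjusted p = 0.202 without ish2 no-Dox replicate 2). The call of MEF2D was also lost with upper quartile factors (adjusted p = 0.0655), with library totals as the only scaling (adjusted p = 0.0774) and with a filter of 10 CPM in 3 libraries (adjusted p = 0.0913). That of MEF2C was also lost with DESeq2 size factors (adjusted p = 0.0691), with DESeq2 (adjusted p = 0.129) and in the fit of 6 libraries (adjusted p = 0.0664). The construct, the line and any batch of libraries cannot be told apart here. Each Dox effect was measured against its own line.

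Helix-loop-helix proteins and other factors that hinder the MyoD family moved in both directions. Of 16 listed inhibitors and competitors, 12 were tested: 8 rose and 3 fell in ish2 (median log2 fold change 0.61, against 0.013 over all genes), and 5 rose and 6 fell in ish (0.060, against -0.008). Of all tested genes, 33.9% were called higher and 31.1% lower in ish2, and 39.1% higher and 39.5% lower in ish. BHLHE40, a helix-loop-helix repressor, rose by 1.16 in ish2 (SE 0.037, adjusted p = 1.07e-24) and fell by 1.17 in ish (SE 0.043, adjusted p = 5.53e-24). ID2, which binds E proteins and keeps them from DNA, rose by 1.94 in ish2 (SE 0.088, adjusted p = 2.89e-20) and by 0.52 in ish (SE 0.11, adjusted p = 1e-04). MDFI, whose product binds MyoD family proteins and blocks them, fell by 0.66 in ish2 (SE 0.058, adjusted p = 2.88e-12) and by 1.79 in ish (SE 0.059, adjusted p = 3.58e-25). HEY1, a repressor downstream of Notch, fell by 0.079 in ish2 (adjusted p = 0.00439) and by 1.19 in ish (adjusted p = 2.69e-31).

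Of 30 listed co-factors, corepressors and kinases of MyoD and MEF2, 5 rose and 17 fell in ish2 (median log2 fold change -0.11). Over all genes in ish2, 33.9% were called higher and 31.1% lower. In ish 15 of the 30 rose and 10 fell (0.092), which is near the shares over all genes there (39.1% and 39.5%). HDAC9, a class IIa deacetylase that binds and represses MEF2, rose by 0.39 in ish2 (SE 0.13, adjusted p = 0.00849) and by 3.15 in ish (SE 0.084, adjusted p = 3.73e-28). SMARCA4, the BRG1 subunit of the SWI/SNF remodeller that MYOD1 recruits, fell by 0.51 in ish2 (SE 0.025, adjusted p = 4.58e-19) and was not called in ish (interval -0.051 to 0.051, adjusted p = 0.999). RUNX1, a transcription factor that acts in proliferating mouse myoblasts, rose by 0.84 in ish2 and by 0.55 in ish, and CAMK2D, a calcium-dependent kinase, by 0.26 and 0.82. Of 13 tested upstream factors of muscle cells, among them PAX, EYA and GLI genes, 3 rose and 7 fell in ish2 (median -0.19), and 4 rose and 5 fell in ish (-0.003), beside 33.9% higher and 31.1% lower over all genes in ish2 and 39.1% and 39.5% in ish. PAX7, a factor of muscle stem cells, fell by 0.91 in ish2 (SE 0.037, adjusted p = 9.92e-22) and had -0.003 in ish, which was not called (adjusted p = 0.929). SIX2 had 0.056 in ish2, which was not called (adjusted p = 0.059), and fell by 0.74 in ish. EYA4, a transcriptional co-activator, rose by 0.14 in ish2 (adjusted p = 4.37e-05) and by 0.33 in ish (adjusted p = 3.72e-13). GLI3, a Hedgehog pathway factor, fell by 0.37 in ish2 and by 0.29 in ish.

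Most of the genes listed as targets of E-box or MEF2 factors rose in ish, and most fell in ish2. Whether each is controlled through such a site was not tested. Of 36 listed names, which hold the old and the new symbol of the fusion gene MYMK, 34 were in the table and tested: 8 rose and 22 fell in ish2 (median log2 fold change -0.59), and 32 rose and 1 fell in ish (1.96), beside 33.9% higher and 31.1% lower over all genes in ish2 and 39.1% and 39.5% in ish. In all, 22 of the 34 rose in ish and fell in ish2, as MYOG did, where 12% of tested genes did so, and 8 rose in both, as MYOD1 did, where 13.8% did. The list was written with earlier results of these libraries known and is no independent evidence of its direction. MYL4, an embryonic myosin light chain, fell by 1.87 in ish2 (SE 0.11, adjusted p = 2e-17) and rose by 3.53 in ish (SE 0.051, adjusted p = 3.52e-36). CHRND, the delta subunit of the acetylcholine receptor, fell by 0.96 in ish2 (SE 0.031, adjusted p = 4.4e-22) and rose by 0.51 in ish (SE 0.030, adjusted p = 4.31e-16). KLHL41, a sarcomere-linked adaptor, fell by 0.12 in ish2 (adjusted p = 0.000693) and rose by 2.32 in ish (adjusted p = 2.82e-35). DES, the gene of desmin, rose by 0.65 in ish2 (SE 0.027, adjusted p = 3.07e-21) and by 0.82 in ish (SE 0.027, adjusted p = 3.5e-25). The gene that fell in ish was CHRNA1, the alpha subunit of the same receptor (-0.28, adjusted p = 5.32e-12), which had 0.021 in ish2 and was not called there (adjusted p = 0.489); it was named after its values were seen.

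**Figure D4:**
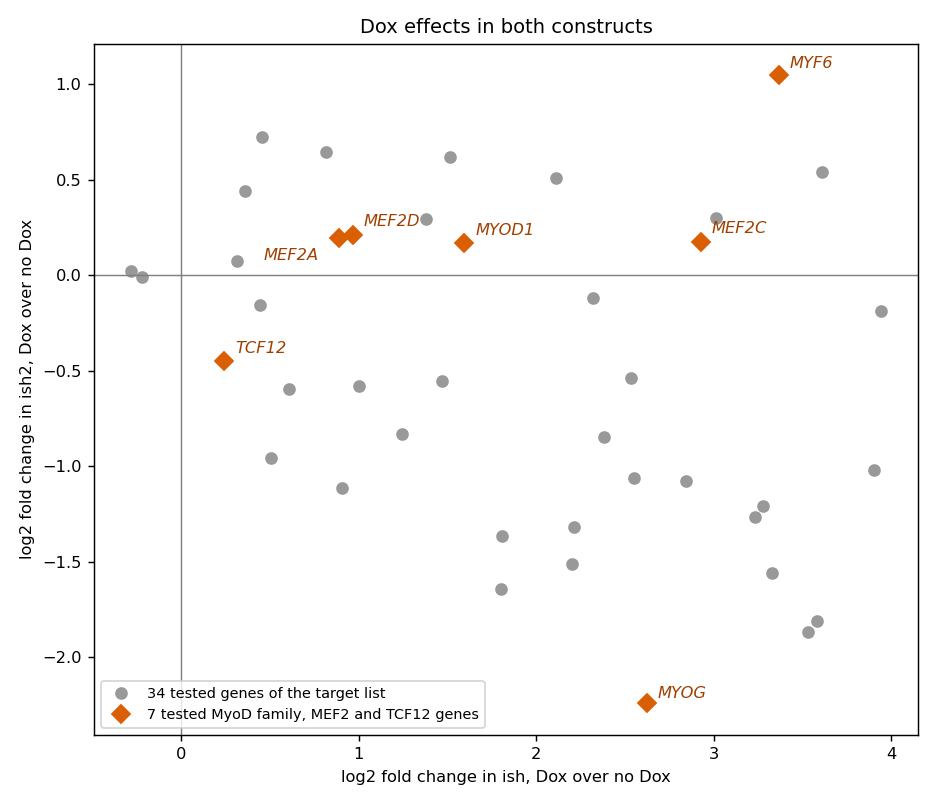
Log2 fold change of Dox over no Dox in ish (horizontal) and in ish2 (vertical) for the 34 tested genes of the target list (grey circles) and the 7 tested factors (orange diamonds). MYOG, at 2.62 and -2.24, lies among the genes at the lower right, whereas MYOD1, MEF2A, MEF2C and MEF2D lie just above the horizontal line.

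The genes whose levels ran closest to each factor were found by the root mean square difference between centred log2 CPM profiles over the 12 libraries, as a description. For MYOG these were SEPT4, the older symbol of a septin gene (0.17), MYBPH, a myosin-binding protein (0.23), and TNNC2, the troponin C of fast muscle (0.36). SEPT4 had log2 fold changes of -1.92 in ish2 and 2.65 in ish. For MEF2C they were MRLN, which encodes a micropeptide regulator of the muscle calcium pump (0.11), TMEM169 (0.12) and PRR32 (0.13), and for MYOD1 they were LANCL2 (0.083), LMO7 (0.088) and SEMA3D (0.088). For MEF2A they were DUSP16, JAK1 and DCAF6 (0.044 to 0.051), for MEF2D CC2D2A, KRT10 and JAK1 (0.046 to 0.050) and for TCF12 FAM161A, C11orf30 and CBX6 (0.034 to 0.038). Measured over the 4 group means instead, MYOG kept all 3 genes, and MYOD1, MEF2A, MEF2C and TCF12 each kept 1 of 3. MYF6 and MEF2D kept 0 of 3. The nearest genes to MYF6 were MEF2C, MB and HOMER2, at a larger distance (0.42 to 0.44). Outside ish with Dox MYF6 had at most 6 reads a library, so its profile there rests on few counts.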

How the data were processed

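RNA of 12 RD libraries was measured by stranded, paired-end mRNA sequencing. Per the submitters' processing notes, Trim Galore 0.6.4, STAR 2.7.3a and featureCounts (Subread 1.6.3) were used with GRCh38, with no word on the strand setting. The authors deposited whole-number gene counts, not normalized. Columns named Sh1 and Sh2 were matched to the constructs labelled ish and ish2. Rows that name no gene were left out of all totals: as a share of all counts, theirs included, they held 10.8 to 12.8% (no feature), 7.15 to 9.57% (not unique) and 2.08 to 2.65% (ambiguous). The names of these rows are in the style of HTSeq, another counting program, which the processing notes do not name. The no-feature share was 10.8 to 11.1% in ish2 with Dox, against 11.5 to 11.9% without Dox. In ish it was 12.6 to 12.8% with Dox, against 11.6 to 12.0% without Dox. The ambiguous share was 2.337 to 2.375% in ish2 with Dox, against 2.568 to 2.578% without Dox. In ish it was 2.075 to 2.097% with Dox, against 2.592 to 2.646% without Dox. The part of these differences in the results was not tested.

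Genes were kept by filterByExpr with a minimum count of 10, scaled by TMM and tested over all 12 libraries with edgeR 4.0.16 (R 4.3.3, quasi-likelihood F test, Benjamini-Hochberg adjustment over all 15206 genes, threshold 0.05). Standard errors were derived from the fold change and F, and are approximate. DESeq2 1.42.0 served as an alternative, and the scripts were tested on simulated data. Depth was 26566603 to 32692207 gene counts per library. Levels per kb used exon lengths of GENCODE v29.

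The members and gene lists were chosen with earlier results of these data known. Named were the 8 members, NT5E, overlapping genes and, from each list, the 2 genes with the smallest p in each construct. The rule allowed up to 4. For each tested member the 3 genes with the most similar profile were named. They were taken from genes with a mean log2 CPM of at least 1. Some listed genes are not reported here and were left out of their list.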

Additional observations from a re-analysis of the deposited data

Results flagged for a closer look

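The effect of Dox differed between the constructs, by edgeR's quasi-likelihood test of the difference itself (ish2 effect minus ish effect, log2), for each of the genes below. A difference was called for 72.6% of all tested genes, and only genes with a called difference are listed. It was not called for the member MYF6 (-2.32, adjusted p = 0.0872) or for GLI3 among the named upstream factors (-0.073, adjusted p = 0.099). Among the factors the difference was -4.87 for MYOG, -2.75 for MEF2C, -1.42 for MYOD1, -0.76 for MEF2D, -0.70 for MEF2A and -0.69 for TCF12, and it was 2.74 for the targeted gene NT5E. Among E proteins it was -0.79 for TCF3 and -0.51 for TCF4. Among inhibitors it was 2.33 for BHLHE40, 1.42 for ID2, 1.13 for MDFI and 1.11 for HEY1. Among co-factors it was -2.77 for HDAC9, -0.56 for CAMK2D, -0.51 for SMARCA4 and 0.29 for RUNX1. Among upstream factors it was -0.91 for PAX7, 0.80 for SIX2 and -0.19 for EYA4. Among targets it was -5.40 for MYL4, -2.44 for KLHL41, -1.47 for CHRND and -0.17 for DES. NT5E itself fell 1.59-fold in ish2 and 10.7-fold in ish, and the part of that gap in these differences was not tested.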

How the results depend on the processing

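Over the alternatives tried (other scalings, DESeq2, other filters, 6-library fits, a replicate block and each library left out), no value of a member or of NT5E changed direction, and every member called in ish, in ish2 or for the difference stayed called. MYF6 gave no value with a filter of at least 10 CPM in 3 libraries, nor in the 6-library fits of ish2 and of the uninduced lines. The difference of MYF6, not called as reported, was called without ish no-Dox replicate 1 and without ish2 no-Dox replicate 2, so that 6 to 7 members were called lower. The uninduced comparison was less firm. There 1 member was called lower, against 2 as reported, with DESeq2 size factors, with DESeq2 and in the fit of 6 libraries, and 1 to 2 with a library left out; 2 to 4 were called higher with a library left out, against 4. DESeq2 called 1128 genes lower there, against 1886. Leaving out a library gave 2985 to 3704 uninduced genes called, of which 1525 to 2025 were higher and 1460 to 1690 lower, against 3974. It gave 9350 to 9579 genes in ish2 (4604 to 4788 higher and 4654 to 4791 lower), 11544 to 11653 in ish (5692 to 5758 higher and 5848 to 5922 lower) and 10807 to 10977 for the difference (5504 to 5628 higher and 5293 to 5349 lower). In these fits 4 members were called higher and 2 lower in ish2. In ish 7 were called higher and 0 lower, and for the difference 0 were called higher. The 7 in ish include MYF6, for which a difference there was built into its being tested. Of all tested genes as reported, 33.9% were called higher and 31.1% lower in ish2, and 39.1% and 39.5% in ish. For the difference these shares were 37.4% and 35.2%, and in the uninduced comparison 13.7% and 12.4%. The cause of the changes between fits was not tested.

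Nothing in the labels says that replicate numbers pair the libraries. Correlations of same-numbered residuals lay between -0.080 and 0.030, and 3 of 12 libraries matched best with their own number. Such values cannot show whether the samples were set up in pairs. With the replicate block 9835 genes were called in ish2, 11926 in ish, 11017 for the difference and 3918 uninduced, and no member's call changed. With the longest transcript as length, 1 of 28 member pairs (MEF2D and TCF12) swapped order in each uninduced group. With group means, the similar genes shared were 1 for MYOD1, MEF2A, MEF2C and TCF12 and 0 for MYF6 and MEF2D. Depth limits what can be said of MYF5 and MYF6.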
